A study of Homo sapiens with 4 samples.

Results

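Nuclear receptors are transcription factors that carry a ligand-binding domain, and 45 of their genes were described here in HepG2 and A549 cells with and without GSK343. The members were a list of 45 gene symbols, and each was represented by the array probes that name it alone. All 45 genes had such a probe, with 75 probes in all, among 18365 genes and 31741 probes on the array. HepG2 is a human liver cancer line and A549 is a human lung cancer line. The 4 groups were HepG2 control, HepG2 with 10 μM GSK343, A549 control and A549 with 10 μM GSK343, each collected at 6 h, and each group was 1 array. GSK343 is an inhibitor of EZH2, the methyltransferase that modifies lysine 27 of histone H3, and the series asked which genes respond to it early. HepG2 cells were kept in serum-containing medium, which can itself hold hormones and lipids. What the control cells received in place of GSK343 is not given in the sources used here.

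Many nuclear receptors are switched by small lipophilic ligands such as steroids, thyroid hormone, retinoic acid, vitamin D, bile acids, oxysterols and fatty acids, and others are orphans with no settled ligand. Most bind DNA through zinc fingers at repeats of a short hexamer, AGGTCA, either as homodimers, as monomers or as heterodimers with a retinoid X receptor, while the steroid hormone receptors use a related inverted repeat. They recruit coactivators or corepressors to the genes they bind, and in liver they are known for the control of bile acid, lipid, glucose and drug metabolism. The arrays measured the mRNA of the receptors in bulk RNA, not their activity, and fewer cells with a transcript cannot be told apart from less of it per cell.

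To place the most unequal members on the genome, RefSeq promoter windows of GRCh38.p14 were examined, each running from 250 bases before to 50 bases after an annotated start. Of the 45 genes, 40 matched by symbol (NR4A2, HNF4G, NR2F6, NR0B2 and VDR did not), with 94 windows of 300 bases, against 35116 windows of 27305 gene symbols in all. A named motif match is a description of letters and not of binding. Windows are shown for genes high in HepG2 (NR1H4, NR1I2) or A549 (NR0B1, NR5A2) and for RARB, a retinoic acid receptor gene higher in A549. They lie at chr12:100503110-100503409 (NR1H4, plus strand), chr3:119781851-119782150 (NR1I2, plus), chrX:30309341-30309640 (NR0B1, minus), chr1:200027460-200027759 and chr1:200042341-200042640 (NR5A2, both plus) and chr3:25428013-25428312 (RARB, plus). Each is printed 5′ to 3′ in lower case, and capitals mark the motifs found on either strand.
NR1H4: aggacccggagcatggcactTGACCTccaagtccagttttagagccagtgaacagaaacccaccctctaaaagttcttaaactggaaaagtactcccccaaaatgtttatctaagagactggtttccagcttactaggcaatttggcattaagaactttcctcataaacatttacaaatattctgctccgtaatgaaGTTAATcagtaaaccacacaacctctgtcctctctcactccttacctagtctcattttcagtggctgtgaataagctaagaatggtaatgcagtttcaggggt
NR1I2: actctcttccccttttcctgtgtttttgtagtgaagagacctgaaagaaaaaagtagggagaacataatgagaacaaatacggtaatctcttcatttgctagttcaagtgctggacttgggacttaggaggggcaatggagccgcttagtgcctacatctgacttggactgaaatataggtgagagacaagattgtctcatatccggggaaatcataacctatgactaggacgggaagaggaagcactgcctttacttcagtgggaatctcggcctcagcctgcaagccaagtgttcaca
NR0B1: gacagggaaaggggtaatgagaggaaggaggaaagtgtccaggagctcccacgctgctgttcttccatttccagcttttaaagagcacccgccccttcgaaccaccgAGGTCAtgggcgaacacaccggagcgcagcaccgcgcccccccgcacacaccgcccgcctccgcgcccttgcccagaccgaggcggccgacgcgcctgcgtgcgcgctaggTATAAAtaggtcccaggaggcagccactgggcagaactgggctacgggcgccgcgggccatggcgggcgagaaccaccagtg
NR5A2, first window: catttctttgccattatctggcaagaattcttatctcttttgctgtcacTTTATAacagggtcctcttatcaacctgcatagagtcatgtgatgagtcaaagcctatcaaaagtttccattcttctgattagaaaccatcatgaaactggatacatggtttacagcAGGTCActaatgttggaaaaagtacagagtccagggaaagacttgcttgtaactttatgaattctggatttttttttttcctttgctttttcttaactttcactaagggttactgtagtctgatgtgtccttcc
NR5A2, second window: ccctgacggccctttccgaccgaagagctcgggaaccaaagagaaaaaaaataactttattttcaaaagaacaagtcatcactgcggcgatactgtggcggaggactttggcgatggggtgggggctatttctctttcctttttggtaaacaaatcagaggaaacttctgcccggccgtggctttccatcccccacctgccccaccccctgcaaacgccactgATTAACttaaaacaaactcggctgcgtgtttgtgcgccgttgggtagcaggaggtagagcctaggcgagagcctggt
RARB: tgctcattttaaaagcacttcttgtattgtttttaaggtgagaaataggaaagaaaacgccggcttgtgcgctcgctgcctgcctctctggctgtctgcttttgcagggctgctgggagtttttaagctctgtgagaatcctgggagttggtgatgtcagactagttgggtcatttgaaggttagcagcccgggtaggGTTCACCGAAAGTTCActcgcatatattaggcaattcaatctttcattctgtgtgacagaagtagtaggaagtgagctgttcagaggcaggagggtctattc

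The hexamer AGGTCA, or its reverse TGACCT, was in 16 of the 94 windows of the members (17.0%) and in 13.8% of all windows. It stood 143 bases before the start in NR0B1, 84 bases before the start in the first NR5A2 window and, reversed, 230 bases before the start in NR1H4. The longer form CAAGGTCA, which contains that hexamer and is the site of NR5A receptors, was in 0 of the members' windows and in 1.28% of all windows. A repeat of GTTCA, with any 6 bases between its copies and read on both strands, was in 20 of all windows (0.057%), and 1 of these belonged to a member, the RARB window, where it began 52 bases before the start. This is the known retinoic acid response element of the RARB promoter, through which the gene is induced by retinoic acid. GTTAAT, part of the site of the liver factor HNF1 and read on both strands, was in 12 of the members' windows (12.8%) and 6.88% of all windows, and stood 53 bases before the start in NR1H4 and, reversed, 27 bases before the start in the second NR5A2 window. TATAAA, read on both strands, was in 8 of the members' windows (8.51%) and 11.5% of all. It lay 32 bases before the start in NR0B1 and, reversed, 201 bases before the start in the first NR5A2 window. The CpG count was 2 in the NR1H4 window, 5 in the NR1I2 window shown, 28 in NR0B1, 0 and 16 in the windows of NR5A2 and 7 in RARB. The median was 16 over the windows of the members and 14 over all windows, with quartiles of 4 and 28 over all windows. The gene NR1I2 had another window with a CpG count of 0, and RARB had 3 others with 33, 1 and 2.

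The median intensity of all probes was 475.8 and 449.8 on the HepG2 control and GSK343 arrays and 460.1 and 498.8 on the A549 control and GSK343 arrays, and a gene was counted as measured above the middle of an array when at least 1 of its probes reached that median. The deposited values carry no detection calls, so a gene under the median is not shown to be absent, and intensities of different probes cannot be ranked against each other. By that measure, 34 of the 45 receptor genes (75.6%) reached the median of at least 1 array, against 65.6% of all genes. There were 30 such genes on the HepG2 control array, 29 on HepG2 GSK343, 27 on A549 control and 28 on A549 GSK343. In both lines 25 genes reached it (55.6%, against 54.6% of all genes). In HepG2 alone it was 5 genes, PGR, NR1H4, NR1I2, THRB and NR5A1 (11.1%, against 5.39% of all genes). In A549 alone it was 4 genes, RARB, NR4A1, NR5A2 and NR0B1 (8.89%, against 5.68%). PGR reached the median only on the HepG2 control array. NR4A1 reached it only on the A549 GSK343 array and was under it in both untreated lines. The other 11 of the 45 genes stayed under the median on all arrays: ESR1 and ESR2, the estrogen receptors, NR3C2, the mineralocorticoid receptor, ESRRG, NR1I3, RXRG, NR1D1, RORB, NR2E1, NR2E3 and NR6A1. Their probes read 27.2 to 441.3 on HepG2 control, 30.0 to 416.7 on HepG2 GSK343, 20.9 to 135.7 on A549 control and 14.7 to 161.4 on A549 GSK343.

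The labels of the lines were checked against their markers. All 9 hepatocyte markers, ALB and AFP among them, were at or above the median on both HepG2 arrays, with 10638 to 373628 in control HepG2 cells against 37.0 to 1209 in control A549 cells. Of 6 markers of differentiated lung epithelium, the surfactant genes and NKX2-1 included, 0 reached the median on either A549 array (30.4 to 388.9 in the control), and 1, SCGB1A1, reached it on the HepG2 GSK343 array (462.2). Of 5 general epithelial markers measured, 2 were at least 1 log2 unit higher in control HepG2 than A549 cells and 2 lower. EPCAM read 41242 against 1479 and KRT19 43501 against 19618, while KRT7 read 23.0 against 56123 and CDH1 1156 against 2337. Markers of leukocytes were at or above the median for 1 of 4 genes on the HepG2 arrays, CD14 (5138 and 5633). On the A549 arrays it was 2 of 4, CD14 (3852 and 3394) and MS4A1 (774.1 and 858.7 on its brighter probe). PTPRC, the pan-leukocyte marker, read 14.5 to 35.2 on its dimmer probe and was under the median on both probes and all arrays. Markers of endothelium and fibroblasts reached the median for 4 and 2 of 6 genes on the HepG2 control and GSK343 arrays and 1 of 6 on each A549 array.

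**Figure D1:**
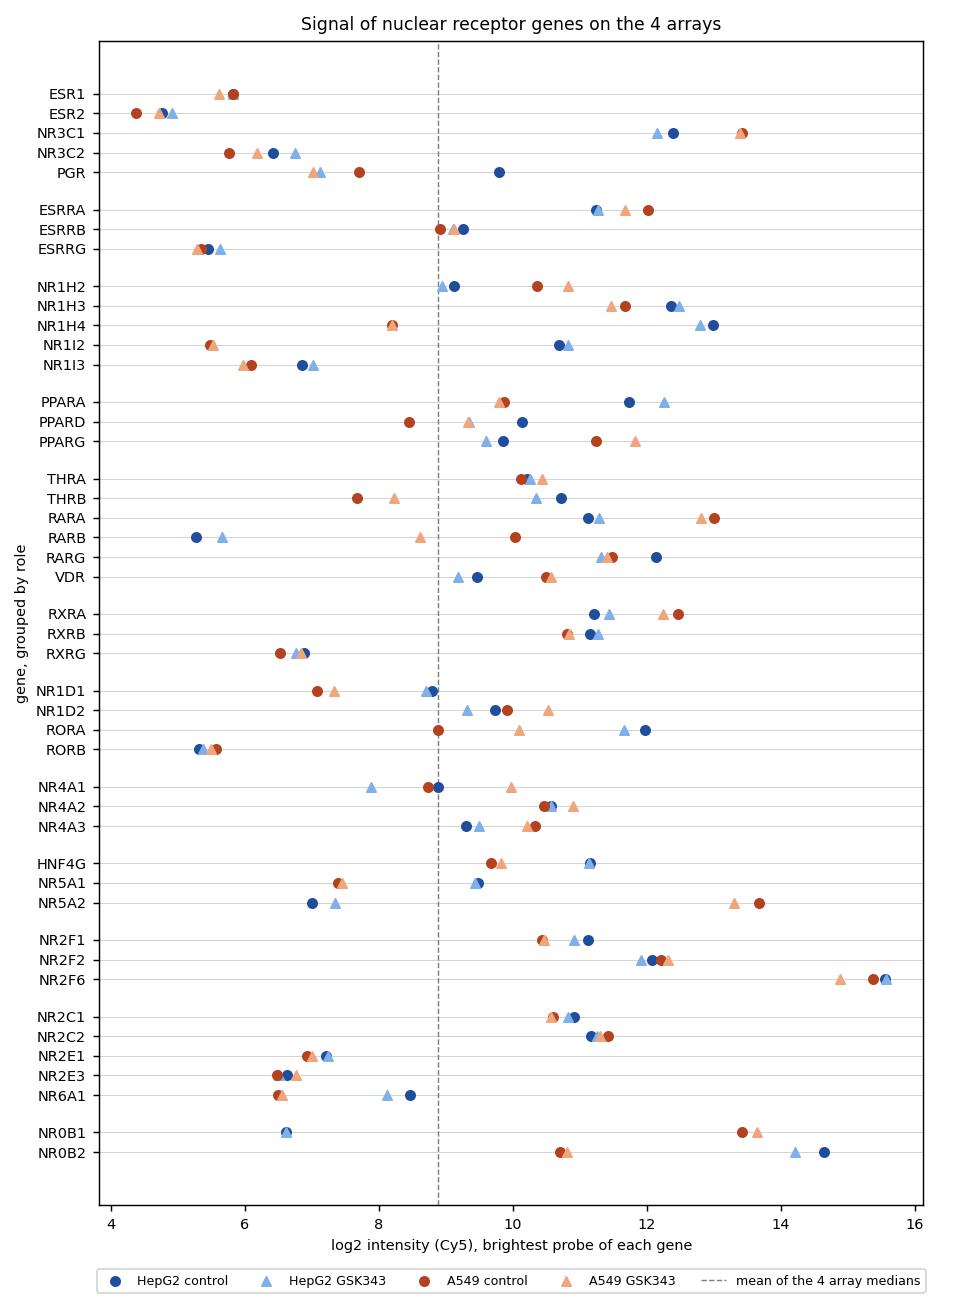
Signal of the 45 nuclear receptor genes, grouped by role. The horizontal axis is the log2 Cy5 intensity of the brightest probe of each gene, with 1 point for each of the 4 arrays (circles control, triangles GSK343, blue HepG2, red A549), and the dashed line is the mean of the 4 array medians. NR1H4, NR1I2 and NR0B2 lie far to the right in HepG2, and NR5A2 and NR0B1 in A549.

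More of the receptor genes lay past 1 log2 unit between the lines than between treatments, and the control arrays enter both kinds of comparison. Between the untreated arrays, 12 of the 45 genes were at least 1 log2 unit higher in HepG2, against 13.0% of all genes, and 9 were at least 1 log2 unit lower, against 13.7% of all genes. This is 26.7% and 20.0% of the members. The gene values, each the mean over the probes of a gene, ran from -6.80 to 5.21 log2 units with a median of 0.14, against 0.07 for all genes. With 1 array per condition this comparison has no error. The line difference was therefore also fitted with limma over all 4 arrays, with GSK343 as a term. The error of a probe combined the disagreement between the control pair and the GSK343 pair with a prior estimated over all probes. The prior had 5.89 degrees of freedom and carried more weight than that disagreement. Of the 75 probes of the members, 19 were higher in HepG2 and 20 lower at an adjusted p under 0.05, against 15.2% and 17.4% of 31607 probes on the array. These probes belonged to 27 genes, 12 higher and 15 lower in HepG2, where 1 called probe was enough to count a gene. Some of these genes had other probes that were not called, or stayed under the median on all arrays. The share of all genes counted in this way was not computed. The 2 arrays of a line differed in treatment and were not replicates of a condition, and the fit had 1 residual degree of freedom, so its p-values describe the spread between these 4 arrays only.

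**Figure D2:**
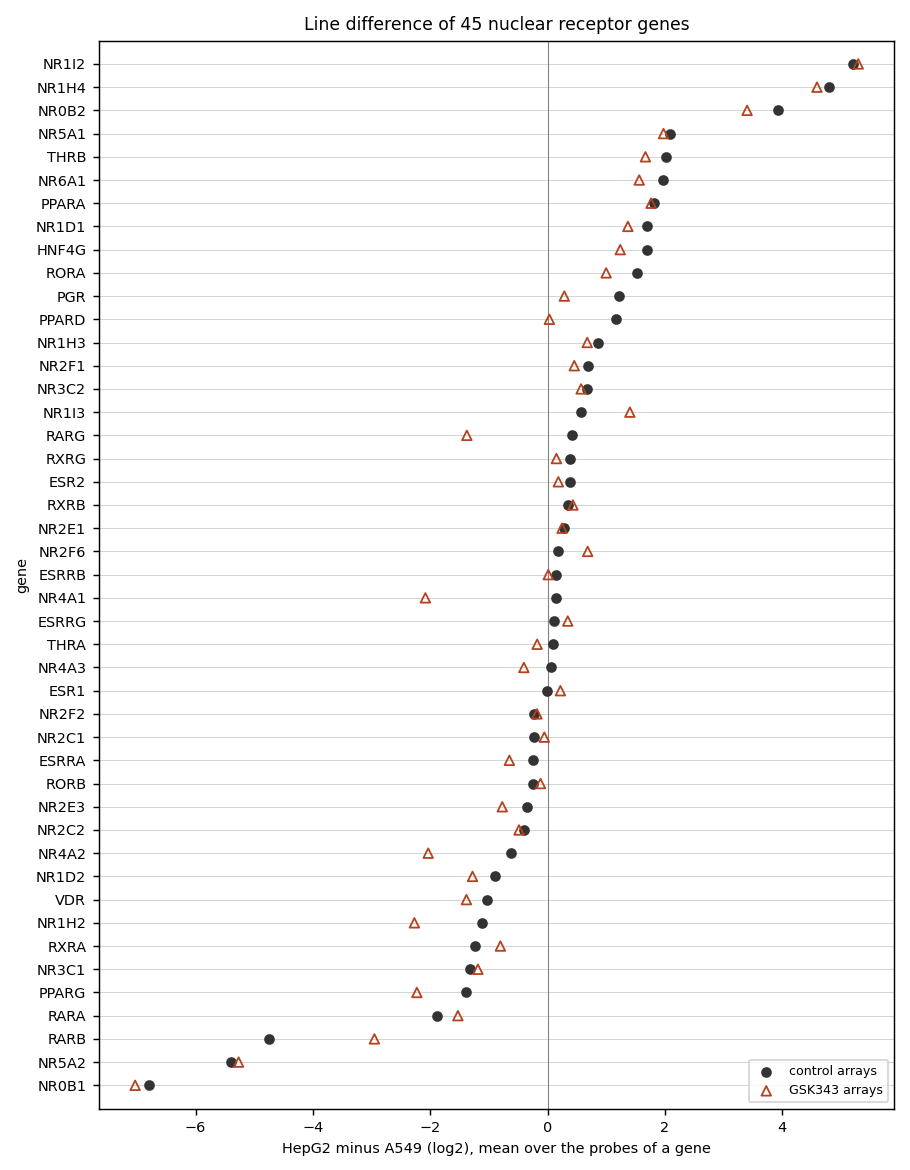
Difference between the lines for each of the 45 genes, ordered by the value in control cells. The horizontal axis is HepG2 minus A549 in log2 units as the mean over the probes of a gene, with filled circles for the control arrays and open triangles for the GSK343 arrays, 1 array per line each. NR1I2, NR1H4 and NR0B2 stand at the top and NR0B1, NR5A2 and RARB at the bottom, and the gaps between circle and triangle are widest for NR4A1, RARB and RARG.

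The sensors of bile acids and xenobiotics were higher in HepG2. NR1H4 encodes FXR, the bile acid receptor, and read 8119 and 7100.4 in control and GSK343-treated HepG2 cells and 293.1 and 294.4 in the A549 cells. The lines did not overlap, and limma gave a HepG2 minus A549 difference of 4.69 ± 0.21 (SE, log2; 25.8-fold; adjusted p = 5.61e-06). NR1I2 encodes PXR, the xenobiotic sensor that induces drug-metabolizing enzymes, and read 1646 and 1805 in HepG2 and 44.6 and 46.0 in A549. It was 5.25 ± 0.19 log2 units higher in HepG2 (38.1-fold; limma adjusted p = 2.38e-06), the highest value among the members. NR0B2 encodes SHP, a partner that lacks a DNA-binding domain and that FXR induces to repress bile acid synthesis. Its intensity was 25438 and 18933 in HepG2 and 1664 and 1793 in A549, a difference of 3.67 ± 0.24 (12.7-fold; limma adjusted p = 3.07e-05).

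The other members of this group followed no single direction. NR1H3 and NR1H2 encode the oxysterol receptors LXR alpha and LXR beta. The brighter NR1H3 probe read 5268 and 5694 in HepG2 and 3258 and 2835 in A549, higher in HepG2 by 0.85 ± 0.22 (limma adjusted p = 0.025), while the dimmer NR1H3 probe read 808.4, 808.6, 394.6 and 636.7 in the same order of arrays. NR1H2 went the other way. Its probes read 554.2 and 491.1 in HepG2 against 1319 and 1816 in A549, and 499.9 and 305.0 against 998.0 and 1922, lower in HepG2 by 1.57 ± 0.23 and 1.83 ± 0.37 (limma adjusted p = 0.0022 and 0.0091). NR1I3, which encodes CAR, the second xenobiotic sensor, was dim in both lines, with 115.0 and 129.2 in HepG2 and 68.3 and 62.6 in A549 on its brighter probe. That probe was higher in HepG2 by 0.90 ± 0.21 (limma adjusted p = 0.016) although all 4 values were under the median.

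The PPAR genes, which encode fatty acid sensors, were divided between the lines. PPARA, the subtype that drives fatty acid oxidation in liver, read 3387 and 4878 in HepG2 and 938.2 and 890.0 in A549 on its brightest probe, 1350.1 and 1551 against 366.2 and 449.9 on the next, and 581.4 and 824.1 against 175.5 and 398.0 on the dimmest. All 3 of its probes were higher in HepG2, by 2.15 ± 0.24, 1.83 ± 0.20 and 1.39 ± 0.23 (limma adjusted p = 4.95e-04, 4.45e-04 and 0.0036). PPARG, the adipogenic subtype, read 928.6 and 771.4 in HepG2 and 2427 and 3616 in A549 and was lower in HepG2 by 1.81 ± 0.26 (limma adjusted p = 0.0019). PPARD, the widely expressed subtype, read 1122 and 647.3 in HepG2 and 348.2 and 644.5 in A549 on its brighter probe, and 150.6, 111.7, 96.8 and 107.6 on the other. The line difference in control cells was 1.69 on that probe and 0.01 with GSK343, and limma did not call it (0.85 ± 0.38, adjusted p = 0.13).

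Among the thyroid, retinoic acid and vitamin D receptors, THRB, one of the thyroid hormone receptor genes, was higher in HepG2 and 3 others were higher in A549. The brighter pair of THRB probes read 1689 and 1299 in HepG2 against 204.0 and 298.3 in A549, and 1265 and 1036 against 148.0 and 202.4. Their differences were 2.59 ± 0.26 and 2.73 ± 0.24 (limma adjusted p = 3.19e-04 and 1.47e-04), and 2 probes under the median, which read 44.0 to 142.2, differed by 0.99 and 1.06. THRA, the other thyroid hormone receptor gene, read 1185 and 1218 in HepG2 and 1113 and 1378 in A549, so the values of the lines overlapped. RARA, a retinoic acid receptor, read 2221 and 2488 in HepG2 and 8178 and 7179 in A549, lower in HepG2 by 1.70 ± 0.22 (limma adjusted p = 0.0012). RARB read 38.7 and 50.7 in HepG2 and 1044 and 392.2 in A549, lower by 3.85 ± 0.39 (14.5-fold; limma adjusted p = 3.21e-04). The 2 A549 arrays themselves lay 1.41 log2 units apart. VDR, the vitamin D receptor, read 706.9 and 581.1 in HepG2 and 1446 and 1517 in A549, lower by 1.21 ± 0.21 (limma adjusted p = 0.0047). RARG, the third retinoic acid receptor, was not called on either probe (0.29 ± 0.26 and -1.24 ± 0.57; limma adjusted p = 0.45 and 0.15).

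The retinoid X receptors are the shared dimer partners of these receptors. RXRA read 2375 and 2776 in HepG2 and 5618 and 4849.9 in A549, lower in HepG2 by 1.02 ± 0.23 (limma adjusted p = 0.013). RXRB read 2283 and 2472 in HepG2 and 1799.6 and 1833 in A549, a difference of 0.39 ± 0.21 that limma did not call (adjusted p = 0.21). RXRG, whose expression is known to be restricted to few tissues, lay between 42.7 and 118.2 on both probes and all arrays.

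Of the steroid hormone receptors, NR3C1, the glucocorticoid receptor gene, was the one with high signal in both lines. Its brightest probe read 5385 and 4528 in HepG2 and 10979 and 10731 in A549, its second probe 1827 and 1699 against 5845 and 3385, and its dimmest probe 1491 and 1216 against 3562 and 3047. All 3 were lower in HepG2, by 1.14 ± 0.22, 1.34 ± 0.25 and 1.29 ± 0.21 (limma adjusted p = 0.0067, 0.0061 and 0.0033). PGR, the progesterone receptor gene, rested on 1 array. One probe read 887.8 and 138.6 in HepG2 and 207.8 and 129.1 in A549, so only the HepG2 control array was above its median, and the other probe read 6.6 to 17.6 throughout. Neither was called (limma adjusted p = 0.093 and 0.42). ESRRA, the estrogen-related receptor that acts with PGC-1 on mitochondrial genes, read 2406 and 2474 in HepG2 and 4131 and 3276 in A549 on its brighter probe, a difference of -0.59 ± 0.22 that limma did not call (adjusted p = 0.088). Its dimmer probe read 331.5, 244.0, 270.4 and 454.8 and was under the median on all 4 arrays. ESRRB read 613.9 and 553.2 in HepG2 and 481.9 and 557.5 in A549, with overlapping lines.

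The orphan receptors held the widest differences in the direction of A549. NR0B1 encodes DAX-1, which like SHP lacks a DNA-binding domain and represses NR5A receptors in steroidogenic tissue. It read 98.3 and 98.2 in HepG2 and 10947 and 12849 in A549, lower in HepG2 by 6.92 ± 0.21 (121-fold; limma adjusted p = 1.37e-06). NR5A2 encodes LRH-1, known in liver as an activator of bile acid synthesis genes. Its brighter probe read 128.6 and 162.3 in HepG2 and 13100.0 and 10053 in A549, and its dimmer probe 64.8 and 53.8 against 1121 and 1289. Both were lower in HepG2, by 6.31 ± 0.25 (79.4-fold) and 4.35 ± 0.21 (20.4-fold; limma adjusted p = 3.17e-06 and 7.81e-06), so the gene known for its role in liver was under the median in the liver line and far above it in the lung line. The related gene NR5A1, which encodes the steroidogenic factor SF-1, had the opposite order at lower signal, with 712.2 and 688.6 in HepG2 and 167.0 and 175.1 in A549 (2.03 ± 0.19 higher in HepG2; limma adjusted p = 2.13e-04). HNF4G, a receptor of the hepatocyte nuclear factor 4 family, read 2284 and 2256 in HepG2 and 820.6 and 901.7 in A549 on the brighter probe and 777.0 and 585.2 against 204.9 and 263.1 on the other. It was higher in HepG2 by 1.40 ± 0.21 and 1.54 ± 0.24 (limma adjusted p = 0.0021 and 0.0027). NR6A1, a germ cell nuclear factor, was under the median on all arrays and yet higher in HepG2 by 1.77 ± 0.21, with 353.5 and 277.1 against 90.1 and 93.9 (limma adjusted p = 6.40e-04).

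The COUP-TF genes, which encode broadly expressed regulators that often act as repressors, were close between the lines. NR2F1 read 2216 and 1927 in HepG2 and 1381 and 1406 in A549. NR2F2 read 4297 and 3842 in HepG2 and 4755 and 5095 in A549 on its brighter probe, and 525.0, 537.7, 647.9 and 521.3 on the other. NR2F6 read 47921 and 48485 in HepG2 and 42552 and 30199.6 in A549. Their limma differences were 0.57 ± 0.21, -0.28 ± 0.22 and 0.43 ± 0.22, and none of the 3 was called (adjusted p = 0.085, 0.39 and 0.19). The testicular receptors NR2C1 and NR2C2 gave different answers by probe. The brightest NR2C1 probe read 1929, 1807, 1543 and 1519.8, the second 1094, 1005, 861.4 and 737.4, and the third 206.0, 169.6, 537.9 and 309.0 over HepG2 control, HepG2 GSK343, A549 control and A549 GSK343. Only the third was called, lower in HepG2 by 1.13 ± 0.21 (limma adjusted p = 0.0065), against differences of 0.29 and 0.40 on the brighter probes. NR2C2 read 2298, 2447, 2726 and 2511 on one probe and 1135, 1037, 1653 and 1986 on the other, and only the other was called (-0.74 ± 0.22; limma adjusted p = 0.040). The dimmer NR2E3 probe, at 53.3, 52.7, 95.8 and 129.1, was also lower in HepG2 (-1.07 ± 0.22; limma adjusted p = 0.010), and all of these values lay under the medians.

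The receptors of the circadian clock are the REV-ERB repressors NR1D1 and NR1D2 and the ROR activators, which compete for the same sites in clock genes. RORA read 4003 and 3244 in HepG2 and 469.6 and 1089 in A549 on its brightest probe, higher in HepG2 by 2.33 ± 0.36 (limma adjusted p = 0.0024). Its second probe read 1435 and 1656 against 1076 and 1077 and was not called (0.52 ± 0.21; adjusted p = 0.10 in limma), and its dimmest probe read 509.3 and 509.8 against 242.9 and 293.4 (0.93 ± 0.20; limma adjusted p = 0.011). NR1D1 read 441.3 and 416.7 in HepG2 and 135.7 and 161.4 in A549, higher in HepG2 by 1.54 ± 0.20 (limma adjusted p = 0.0011) while just under the HepG2 medians. NR1D2 had the opposite order. Its brightest probe read 848.1 and 639.0 in HepG2 and 962.9 and 1475 in A549 and was not called, and its second probe read 484.2 and 502.5 against 1422 and 1364, 2.82-fold lower in HepG2 (limma adjusted p = 0.0013). The dimmest NR1D2 probe read 104.6 and 99.3 against 200.2 and 226.9 (lower by 1.06 ± 0.20). RORB stayed between 39.7 and 47.4.

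To ask whether the receptors responded to GSK343, the differences within each line were examined. Few did by 1 log2 unit. In HepG2, 0 of the 45 genes were at least 1 log2 unit higher, against 0.458% of all genes. In the same line 1 gene, RARG, was at least 1 log2 unit lower, against 1.87%. By the brightest probe of each gene it was also 1, but that gene was PGR (-2.68) and not RARG (-0.81). In A549, 1 gene, NR4A1, was at least 1 log2 unit higher, against 0.932%, and 1 gene, RARB, at least 1 log2 unit lower, against 0.534%. The median of the members was -0.06 in HepG2 and 0.08 in A549, against -0.02 and 0.04 for all genes, with 17 members above 0 in HepG2 (37.8%, against 46.7% of all genes) and 32 in A549 (71.1%, against 54.7%). The medians of the arrays themselves differed by -0.07 in HepG2 and 0.12 in A549. After centring each array on its median, the share of higher genes among all genes past 1 log2 unit went from 63.6% to 42.3% in A549, and the members counted did not change in number. Each line had 1 control and 1 GSK343 array, so these differences have no replicate check.

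**Figure D3:**
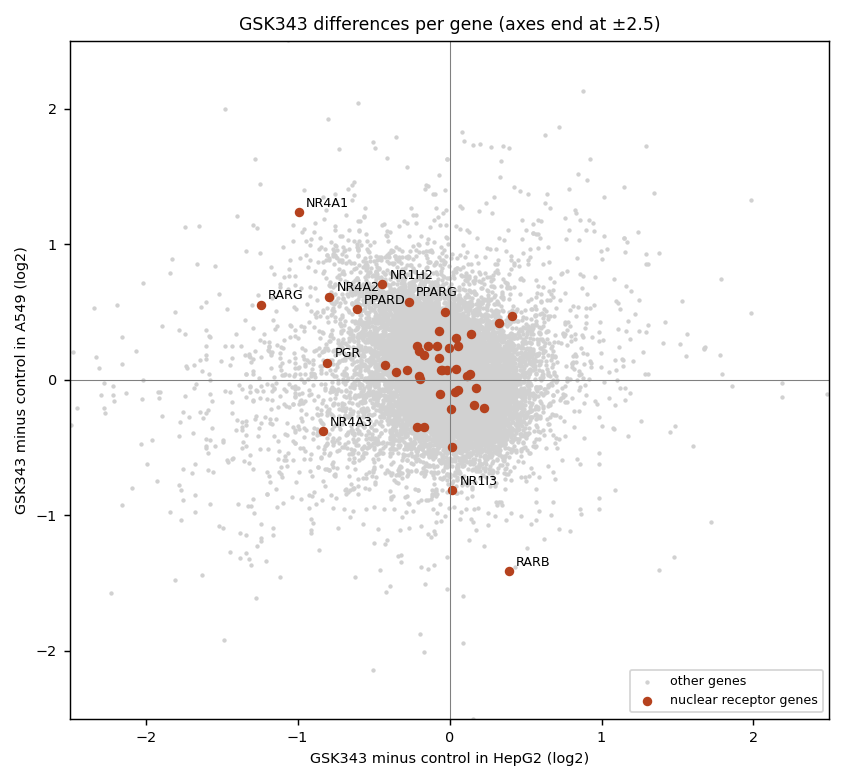
GSK343 minus control in HepG2 (horizontal axis) against A549 (vertical axis), in log2 units as the mean over the probes of a gene, with 1 array per condition. Red points are the 45 nuclear receptor genes and grey points the other genes inside the plotted range. Most red points lie near 0 on both axes, NR4A1 lies at -0.99 and 1.23, RARG at -1.24 and 0.55 and RARB at 0.39 and -1.41.

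The NR4A genes encode orphan receptors that are induced as immediate-early genes by growth factors and stress, and are known to act without a ligand. NR4A1, with 1 probe, read 470.6 in control and 236.8 in GSK343-treated HepG2 cells, and 426.9 and 1003 in A549 cells. The control arrays were close to each other and the GSK343 arrays lay on either side of them, with differences of -0.99 and 1.23. The brighter NR4A2 probe read 1518 and 1512 in HepG2 and 1406 and 1907 in A549, and the dimmer one 120.3 and 40.3 in HepG2 and 312.1 and 536.9 in A549. Their differences in HepG2 were -0.01 and -1.58 and in A549 0.44 and 0.78, so the HepG2 value of the gene rested on the probe under the median. NR4A3 read 631.6 and 717.6 in HepG2 and 1293 and 1181 in A549 on its brightest probe, 820.9 and 540.8 against 735.2 and 503.7 on the second, and 285.5 and 67.2 against 140.4 and 101.7 on the third. From the brightest to the dimmest, the differences of these 3 probes were 0.18, -0.60 and -2.09 in HepG2, and in A549 -0.13, -0.55 and -0.47. As means over probes, the NR4A genes were 3 of 3 below 0 in HepG2 (median -0.83), and 2 of 3 above 0 in A549 (median 0.61). Between the lines, the dimmer NR4A2 probe was lower in HepG2 by 2.56 ± 0.49 (limma adjusted p = 0.0068). The brightest NR4A3 probe was lower by 0.88 ± 0.21 (limma adjusted p = 0.018). Their other probes were not called, at -0.11 for NR4A2 and 0.13 and 0.21 for NR4A3. NR4A1 was not called either (-0.97 ± 0.47, limma adjusted p = 0.16).

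The retinoic acid receptors with differences past 1 log2 unit also depended on the line and the probe. The brighter RARG probe read 4499 and 2559 in HepG2 and 2849.8 and 2714 in A549, and the dimmer one 320.0 and 100.3 in HepG2 and 282.7 and 637.7 in A549. Both were lower with GSK343 in HepG2, at -0.81 and -1.67, and in A549 they gave -0.07 and 1.17. RARB was lower in A549 (-1.41) and was 0.39 in HepG2, where both arrays were far under the median. RARA gave 0.16 in HepG2 and -0.19 in A549.

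Of the lipid sensors, PPARD was lower with GSK343 in HepG2 (-0.79 on the brighter probe and -0.43 on the dimmer) and higher in A549 (0.89 and 0.15). All 3 PPARA probes were above 0 in HepG2, at 0.53, 0.20 and 0.50, and in A549 they gave -0.08, 0.30 and 1.18 with the dimmest probe highest. PPARG gave -0.27 and 0.58. The NR1H2 probes gave -0.17 and -0.71 in HepG2 and 0.46 and 0.95 in A549. NR1H4, NR1I2 and NR0B2, which set HepG2 apart from A549, gave -0.19, 0.13 and -0.43 in HepG2 and 0.01, 0.04 and 0.11 in A549, which is small beside their line differences of 3.67 to 5.25. The same holds for NR0B1, at 0.00 and 0.23, and for the brighter NR5A2 probe, at 0.34 and -0.38.

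The NR3C1 probes gave -0.25, -0.10 and -0.29 in HepG2 and -0.03, -0.79 and -0.23 in A549, below 0 throughout. The brighter PGR probe gave -2.68 in HepG2, the lowest of the members' probes in that line, and -0.69 in A549, and the dim PGR probe gave 1.07 and 0.94. RORA in A549 gave 1.21 on its brightest probe, 0.00 on the second and 0.27 on the third, and in HepG2 -0.30, 0.21 and 0.00. The NR1D2 probes gave -0.41, 0.05 and -0.08 in HepG2 and 0.62, -0.06 and 0.18 in A549. NR1I3, a dim gene, gave -1.51 in A549 on a probe that read 41.7 and 14.7 and -0.13 on its other probe.

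How far different probes of a gene agreed gave a partial scale for these values. Probes of a gene were read on the same arrays. Their spread therefore does not measure variation between cultures or RNA samples, or a shift of a whole array. The spread between probes of a gene was 0.39 log2 units in HepG2 over 7404 probe pairs of all genes and 0.60 over the 39 pairs of the members, and in A549 0.42 and 0.50. Of the 22 members with several probes, 11 had all probes on one side of 0 in HepG2 and 11 in A549. The probes of a gene lay at least 1 log2 unit apart for 3 members in HepG2 and 6 in A549. These counts were not made over all genes with several probes, and unrelated probes would also share a sign in some genes. For the line difference in control cells the corresponding values were 16 of 22 on one side and 11 at least 1 log2 unit apart, with a spread of 0.89 over the pairs of the members.

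**Figure D4:**
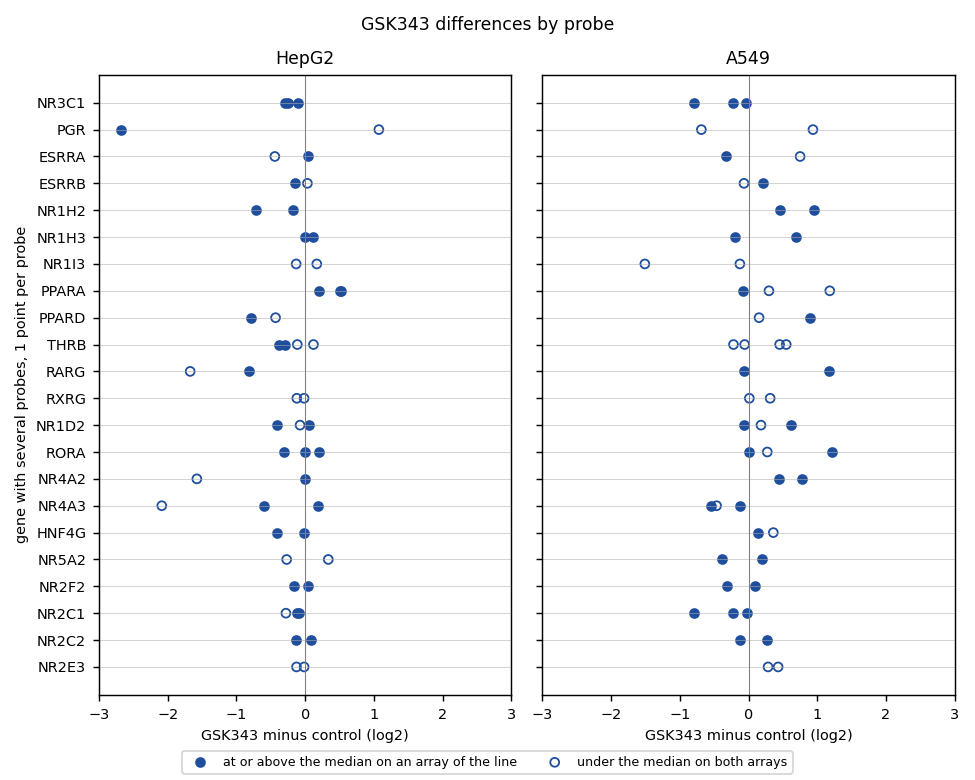
GSK343 minus control in log2 units for each probe of the 22 nuclear receptor genes with several probes, in HepG2 (left) and A549 (right), 1 array per condition. Filled points are probes at or above the array median on an array of that line and open points are probes under it on both. The PGR probes in HepG2 lie at -2.68 and 1.07, those of NR4A3 between -2.09 and 0.18, and those of NR3C1 on one side of 0 in both lines.

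The only test of GSK343 that the design allows is the limma fit over both lines, with cell line as a term. Its error combines how far the lines disagree on a probe with the prior over all probes, which carries more weight (5.89 degrees of freedom). At an adjusted p under 0.05 the fit called 0 of 31607 probes (0.0%) and 0 of the 75 probes of the members. An unadjusted p under 0.05 was given to 1287 and 6 of them. The lowest adjusted p of a member was that of the brighter PGR probe (-1.68 ± 0.42, adjusted p = 0.61). A probe whose lines differ in opposite directions has a larger error in this fit, and the prior draws that error towards the other probes. At a size of 0.5 log2 units in each line, 4 of the 45 genes were lower in HepG2 and higher in A549 (NR4A1, NR4A2, PPARD and RARG), against 320 of 18313 genes (1.75%). There were 0 members with the reverse pattern, against 0.202%, and 0 that went the same way in both lines, against 1.62%. These counts used the deposited values with no further scaling and were not repeated on centred arrays. The array medians differed by -0.07 in HepG2 and 0.12 in A549, the directions of the first pattern. In A549, NR4A2, PPARD and RARG (0.61, 0.52 and 0.55) exceeded 0.5 by less than that 0.12.

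The direct partners and known targets of the receptors were examined next, between the untreated lines, where 13.0% of all genes were at least 1 log2 unit higher in HepG2 and 13.7% lower. The lists are short, and no test was made of their shares. Of 15 coregulators, which are recruited by the receptors to turn transcription up or down, 2 were at least 1 log2 unit higher in untreated HepG2 than A549 and 3 lower. PPARGC1A, which encodes the coactivator PGC-1 alpha, read 841.8 and 817.9 in HepG2 and 117.6 and 155.5 in A549, and KAT2B, an acetyltransferase, read 176.7 and 164.4 against 4488 and 3997 on its brighter probe. NCOA3, a coactivator, read 7483 and 7855 in HepG2 and 18917 and 22097 in A549, and SIN3A, a corepressor scaffold, 3061 and 3824 against 11475 and 9278 on its brighter probe. The other gene past this size was NCOA2, a coactivator, with 695.4 and 583.2 against 314.0 and 505.6 on its brighter probe. Of 6 FXR targets, 3 were higher in HepG2 and 0 lower. Of these 3, SLC10A1 was under the median on all arrays, with 87.8 and 73.4 in HepG2 and 39.8 and 28.4 in A549. SLC51A and SLC51B encode the subunits of a bile acid exporter, and read 1839 and 1500.3 in HepG2 against 68.3 and 93.9 in A549, and 845.0 and 744.5 against 179.3 and 190.7. CYP7A1, the rate-limiting enzyme of bile acid synthesis, read 17.1 to 62.6 in control cells of the 2 lines.

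Of 8 LXR targets, 4 were at least 1 log2 unit higher in HepG2 and 1 lower, among them ABCG5, a sterol exporter, with 1918 and 2677 in HepG2 and 89.2 and 78.2 in A549, and LPCAT3, a phospholipid-remodelling enzyme, with 2059 and 1499 against 869.0 and 1275. ABCG8, among the higher genes, and ABCG1, the lower gene, were under the median on all arrays. Of 7 PPAR targets measured, 2 were higher and 2 lower. FABP1, the liver fatty acid binding protein gene, read 37461 and 49130.0 in HepG2 and 58.8 and 89.0 in A549, and PLIN2, a lipid droplet protein gene, 139917 and 120729 against 23613 and 28247. PDK4, a kinase that shuts off pyruvate oxidation, read 61.7 and 53.8 in HepG2 and 2121 and 3293 in A549, and CPT1A, which admits fatty acids to mitochondria, 1557 and 1671 against 17986 and 14549 on its brighter probe. ABCB1, a drug exporter, was the 1 of 5 PXR and CAR targets past 1 log2 unit, at 5939 and 5841 in HepG2 and 159.4 and 147.7 in A549. Of 7 glucocorticoid receptor targets, 2 were higher and 2 lower. TSC22D3, which encodes the glucocorticoid-induced leucine zipper, read 83.7 and 121.0 in HepG2 and 1345 and 1581 in A549, and DUSP1, a phosphatase, read 7434 and 5198 against 34957 and 40667. KLF9, a transcription factor, went the other way with 1153 and 1379 in HepG2 and 318.7 and 201.5 in A549, as did SGK1, a kinase, with 680.8 and 492.2 against 221.0 and 247.4. Of 6 retinoic acid and vitamin D targets, 0 were higher in HepG2 and 3 lower (median -1.07 against 0.07 for all genes). CYP24A1, which degrades vitamin D, read 9823 and 5937 in HepG2 and 43430.3 and 34294 in A549, and CYP26B1, which degrades retinoic acid, 277.1 and 274.0 against 1288 and 1352. STRA6, a retinol transporter, read 205.0 and 197.5 against 697.3 and 1101 on its brighter probe. Of 8 clock partners, 2 were higher and 2 lower. CRY2, a clock repressor, read 1463 and 1426 in HepG2 and 388.0 and 415.6 in A549 on its brighter probe, and PER2, another repressor, 3836 and 3633 against 1888 and 1944. NPAS2 and ARNTL, partners in the activating arm of the clock, were lower in HepG2, with 2286 and 2220.0 against 6604 and 7823 and with 257.3 and 224.4 against 669.7 and 1019.

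The same lists differed little with GSK343. In HepG2, 1 gene of the LXR targets was past 1 log2 unit, ABCG1, from 13.6 to 30.0, and in A549 1 gene of the same list, ABCG8, both on probes under the median. The medians of the 8 lists lay between -0.26 and 0.22 in HepG2 and between -0.11 and 0.26 in A549. ABCA1, an LXR target that exports cholesterol, read 8111 and 10049 in HepG2 and 2154 and 1134 in A549, differences of 0.31 and -0.93. TGM2, a retinoic acid target, read 1218 and 753.8 in HepG2 and 4049 and 8182 in A549 on its brighter probe, and CRY2 gave 1.71 in A549 on its dimmer probe and 0.10 on the other.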

How the data were processed

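Total RNA of HepG2 and A549 cells was measured on the single-colour Human OneArray Plus platform, 1 array for each of the 4 conditions. The table that the authors deposited holds 1 processed linear Cy5 intensity per probe and array. The scanner, background correction and normalization are not given in the sources used here and could not be repeated, so an unknown part of a small difference may come from them.

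Values of 0 or less (41 to 91 of 31741 probes per array) were left out. Differences were log2 of one array minus log2 of the other with no further scaling, and genes were given as the average of their single-gene probes (24740 probes). Probes were paired with genes by the platform annotation, where 977 probes named several genes and 6024 none. With 1 array per condition, a difference within a line has no p-value, and genes were counted from 1 log2 unit upwards. The number of arrays limits the precision. To get the spread between probes, the root mean square of differences between probe pairs of a gene, pooled over genes, was divided by the square root of 2. limma 3.58.1 (R 4.3.3) was fitted to the 31607 probes above 0 on all arrays with cell line and GSK343 as terms. It used lmFit and eBayes with a trend, two-sided, Benjamini-Hochberg adjusted over all probes. A check of the fit on simulated data gave both lines the same change, so it does not cover lines that disagree. Python 3.11.15 with numpy 2.4.6, pandas 2.3.3 and matplotlib 3.10.9 did the rest.

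The members, their role groups and the 13 other gene lists were chosen with earlier results of these data known. Members with a probe at or above an array median were given with all 4 values, brightest probe first and other probes where they differed by over 0.5 log2 units, the remaining members by range. Genes of the other lists were named where past 1 log2 unit on a probe at or above the median, up to 4 a list. NCOA2, CYP7A1, SLC10A1, ABCG1, ABCG8 and TGM2 were added after their values were seen. As alternatives, arrays were centred on their medians or quantile normalized, probes under the median or under the 25th percentile were dropped, 50 was added before the log, genes were counted from 1.5 log2 units or given by their brightest probe alone, and limma was run without the trend, robustly, or without the other term.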

Additional observations from a re-analysis of the deposited data

Results flagged for a closer look

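4 members had GSK343 differences of opposite direction in the lines, each at least 0.5 log2 units, and the difference between the lines was not tested. The values had no further scaling, and the array medians differed in the same directions, by -0.07 in HepG2 and 0.12 in A549. NR4A1 gave -0.99 in HepG2 and 1.23 in A549, on 1 probe. NR4A2 gave -0.79 and 0.61, where the brighter probe alone gave -0.01 and 0.44. PPARD gave -0.61 and 0.52, and both of its probes had these directions. RARG gave -1.24 and 0.55, where the brighter probe alone gave -0.81 and -0.07.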

How the results depend on the processing

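Of the counts and medians recomputed under the alternatives, 107 stayed within 1.5 times (counts) or the spread between probes (medians) of the reported value and 9 did not. The median of the members with GSK343 crossed 0 with median centring, from -0.06 to 0.00 in HepG2 and from 0.08 to -0.04 in A549. In HepG2, the members at least 1 log2 unit lower with GSK343 went from 1 to 2 with probes at or above the 25th percentile or an offset of 50. This count stayed at 1 with the brightest probe per gene, but PGR (-2.68) took the place of RARG (-0.81). In A549, the members at least 1 log2 unit higher went from 1 to 2 with the brightest probe per gene, which added RORA. At a size of 1.5 log2 units all 3 of these GSK343 counts of 1 went to 0, and the members lower in untreated HepG2 than A549 went from 9 to 4. With only probes whose mean was at or above the median, limma tested fewer probes, and calls lower in HepG2 went from 5510 to 3603 and member probes called higher from 19 to 9. limma called 0 probes for GSK343 under every alternative run, with 228 to 1548 at an unadjusted p under 0.05. Single member genes stayed within the spread between probes in 719 recomputed values and moved in 27, among them RARG in A549, from 0.55 to -0.07, and NR4A2 in HepG2, from -0.79 to -0.01, on the brightest probe. Of the limma values for single probes of the members, 965 kept their side of the threshold, 14 gained a call and 1, for NR2C2 under quantile normalization, lost it. The cause was not tested. The limma fit pairs the arrays of a line through its cell line term. Leaving out an array leaves it no residual degrees of freedom and was not run. No background values were used here, so the order of dim probes is uncertain.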
